A study of Homo sapiens with 6 samples.

Results

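The clustered protocadherins are the cell adhesion genes of the PCDHA, PCDHB and PCDHG clusters, which lie next to each other on chromosome 5. Their 48 members here were chosen by symbol, as the rows named PCDHA, PCDHB or PCDHG followed by a letter or digit, out of 17721 genes in the deposited table. The members were 11 PCDHA, 15 PCDHB and 22 PCDHG genes, and the 22 PCDHG genes were 12 of the A type, 7 of the B type and 3 of the C type. RNA was sequenced from MDA-MB-231BR, a brain-tropic derivative of the human triple-negative breast cancer line MDA-MB-231. Cells carried an shRNA against ACSS2, an acetyl-CoA synthetase of the cytosol and nucleus that uses acetate, in 3 libraries, and a control shRNA in 3 libraries. Both shRNAs were delivered by lentivirus and followed by antibiotic selection, in monoculture, and the number of hairpin sequences against ACSS2 is not stated in the labels. A batch tag in the labels gave the libraries of both groups the numbers 1 to 3. The family was singled out with the contrast between the hairpins already known, so its counts and fold changes in that contrast are a description and carry no test of the family. In bulk RNA, a change in the number of cells with a transcript and a change in RNA per cell cannot be told apart.

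Clustered protocadherins are single-pass membrane proteins that bind the same isoform on a neighbouring cell and are best known for giving neurons of the brain a surface identity. In the PCDHA and PCDHG clusters each gene has its own promoter and its own large first exon, which encodes the extracellular cadherin repeats and the membrane-spanning segment, and this exon is spliced to constant exons shared by the whole cluster that encode a common cytoplasmic end. PCDHB genes have a single coding exon and no constant exons. Promoter choice in neurons depends on looping of distant enhancers to promoters bound by CTCF and cohesin, and on DNA methylation.

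The shared exons decide how far the members can be told apart in RNA reads, so the shortest pair is shown first. In GENCODE release 29 (GRCh38), 15 PCDHA genes share constant coding exons of 59, 89 and 308 bases, and 22 PCDHG genes share constant coding exons of 59, 89 and 224 bases. The first constant exons of the clusters, both on the plus strand, are identical at 39 of 59 aligned bases (66.1%). Capitals mark the bases that the exons have in common.
PCDHA constant exon 1, chr5:140978949-140979007: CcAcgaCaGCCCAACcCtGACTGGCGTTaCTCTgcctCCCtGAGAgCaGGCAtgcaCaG
PCDHG constant exon 1, chr5:141494807-141494865: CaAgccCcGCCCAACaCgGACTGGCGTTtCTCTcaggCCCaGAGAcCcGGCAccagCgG
The second constant exons matched at 29 of 89 positions (32.6%). Exons from the first constant one onward made up a median of 54.5% of the longest transcript of the 11 PCDHA members (range 45.5% to 54.9%) and 47.3% of that of the 22 PCDHG members (range 45.6% to 47.6%). A read from those bases names the cluster and not the gene. Most of the members' counts were estimates and not whole reads: 91.2% of the PCDHA values above 0, 85.9% of the PCDHB values and 95.9% of the PCDHG values were not whole within 0.005, against 14% over all genes. PCDHB genes have no constant exons, and in those with 1 annotated transcript 78.3% of the values were not whole. The parts of constant exons, similar sequence and overlapping models in this were not tested. The PCDHB gene models in the table also overlapped, each of the 15 with at least 1 other, because some models run through several neighbouring genes: the PCDHB6 model spans 226174 bases and overlaps all 14 others. Single members are therefore uncertain in all 3 clusters. Summed reads do not depend on how they were divided among the genes summed, and summed TPM does so only through the gene lengths used. Only 11 of the 15 PCDHA genes were among the members, without PCDHA5, PCDHA6, PCDHA8 and PCDHA10, so the PCDHA sum can still depend on the division of shared reads. The PCDHB sum can too, since PCDHB1 was not among the members and the PCDHB6 model ends at 141320780, beyond the PCDHB15 model's end at 141248234. PCDHB6 was at or below 0.14 TPM in each library. The PCDHGA8 model ends at 141619044, beyond the end at 141512979 of 19 of the 22 PCDHG models, and that gene was at or below 0.14 TPM in each library.

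The letters CGCT are the known conserved core of a short promoter element in this family. A CGCT alone does not identify that element, and the matches counted here are of the letters only. RefSeq (GRCh38.p14) promoter sequences, from 250 bases before to 50 bases after each start, were found for 42 of the 48 members. PCDHA3, PCDHA13, PCDHB6, PCDHB11, PCDHGA12 and PCDHGC5 had no entry. In the 100 bases before the start, on the transcribed strand, CGCT stood in 19 of 20 PCDHG, 12 of 13 PCDHB and 8 of 9 PCDHA promoters, against 28.1% of 35116 promoters (44.8% with both strands searched). The windows of 40 bases shown here belong to the members with the highest levels in each cluster for which CGCT was found, plus PCDHGA4, PCDHGA6 and PCDHA4. Capitals mark the CGCT nearest the upstream end of that stretch, and all lie on the plus strand.
PCDHGC3, chr5:141475876-141475915: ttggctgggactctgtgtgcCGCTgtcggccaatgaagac
PCDHGA10, chr5:141412927-141412966: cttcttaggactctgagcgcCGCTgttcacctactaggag
PCDHGB7, chr5:141417603-141417642: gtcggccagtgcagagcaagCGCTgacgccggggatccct
PCDHGB1, chr5:141350021-141350060: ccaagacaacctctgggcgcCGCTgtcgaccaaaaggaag
PCDHGA11, chr5:141420968-141421007: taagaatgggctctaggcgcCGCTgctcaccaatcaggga
PCDHGA4, chr5:141354956-141354995: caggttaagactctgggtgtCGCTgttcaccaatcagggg
PCDHGA6, chr5:141373831-141373870: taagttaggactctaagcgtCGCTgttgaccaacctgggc
PCDHB9, chr5:141187070-141187109: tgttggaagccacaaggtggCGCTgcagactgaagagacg
PCDHB2, chr5:141094540-141094579: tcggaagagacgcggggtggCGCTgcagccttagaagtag
PCDHB14, chr5:141223259-141223298: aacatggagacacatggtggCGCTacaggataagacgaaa
PCDHB10, chr5:141192295-141192334: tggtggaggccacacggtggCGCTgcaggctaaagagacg
PCDHA11, chr5:140868879-140868918: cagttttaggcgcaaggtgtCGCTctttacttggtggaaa
PCDHAC1, chr5:140926216-140926255: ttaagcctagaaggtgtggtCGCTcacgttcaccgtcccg
PCDHAC2, chr5:140966361-140966400: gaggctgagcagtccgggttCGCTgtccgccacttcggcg
PCDHA1, chr5:140786082-140786121: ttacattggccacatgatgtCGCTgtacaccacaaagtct
PCDHA4, chr5:140806975-140807014: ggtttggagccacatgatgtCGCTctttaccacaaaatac
The letters around the marked CGCT differed by cluster, and those of PCDHAC1 and PCDHAC2 differed from those of PCDHA1 and PCDHA4. In PCDHGB7 the letters gtcggccagtgcagag stand before the marked CGCT, and in PCDHGB6 they follow it. The mark in PCDHGB7 is therefore not at the matching position. The first CGCT of the stretch began a median of 58.0 bases before the start in PCDHG, 61.5 in PCDHB and 60.5 in PCDHA. Longer words containing CGCT, picked from these windows, were searched in the same stretch on the transcribed strand. GGTGGCGCT stood in 12 of 13 PCDHB promoters and in 0 of the 20 PCDHG and 9 PCDHA promoters, against 0.151% of all promoters. CCGCTGT stood in 11 of 20 PCDHG promoters and in none of the other members' promoters, against 0.641% of all promoters. ATGTCGCT stood in 5 of 9 PCDHA promoters and in none of the other members' promoters, against 0.0541% of all promoters. These matches describe letters and not binding. Whether any of these words goes with the fold changes between the hairpins was not tested.

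The libraries held 15048275 to 18608124 estimated reads. ACSS2 stood at 7.32, 33.27 and 53.0 TPM in ACSS2 shRNA libraries 1, 2 and 3, against 43.69, 44.47 and 94.52 TPM in control libraries 1, 2 and 3. It was lower with the ACSS2 shRNA within every number, and the groups overlapped because ACSS2 shRNA library 3 lay above control libraries 1 and 2. With edgeR's quasi-likelihood test its log2 fold change was -1.05 (adjusted p = 0.504), and -1.31 (adjusted p = 0.00757) with the replicate number as a term. The 7 genes listed for the line, with PGR, ESR1 and ERBB2 listed as low, summed to 6130 to 7640 TPM in ACSS2 shRNA cells. In control cells these genes summed to 6220 to 6580 TPM, and VIM led the sum in both groups. The progesterone receptor PGR was at or below 0.24 TPM in each library. ESR1 stood at 0.92 to 1.21 TPM in ACSS2 shRNA libraries and 0.57 to 0.88 TPM in control libraries. ERBB2, listed among the genes low in this line, stood at 26.55 to 42.87 TPM in ACSS2 shRNA libraries and 26.48 to 31.9 TPM in control libraries. Of 12 neuron markers 10 were in the table: SNAP25 was listed at 0 in all 6 libraries, and 6 of the 10 including it were below 1 TPM in each. The sum of the 10, 140 to 213 TPM with the ACSS2 shRNA and 134 to 204 TPM with the control, was mostly TUBB3. RBFOX3 was also present, at 0.72, 6.39 and 12.03 TPM in ACSS2 shRNA libraries and 1.19, 10.19 and 21.33 TPM in control libraries. SYT1 reached 1.74 TPM with the ACSS2 shRNA and 4.3 TPM with the control, and MAP2 reached 0.86 and 1.42 TPM. The 4 glial markers in the table summed to 31.1 to 64.6 TPM in ACSS2 shRNA cells and 40.5 to 73.6 TPM in control cells, nearly all of it MBP, and GFAP was below 1 TPM in each. The 5 luminal markers summed to 872 to 1010 TPM in ACSS2 shRNA cells and 708 to 950 TPM in control cells, with the epithelial cadherin CDH1 at or below 0.05 TPM.

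The PCDHG and PCDHB clusters were higher in each ACSS2 shRNA library than in any control library. The PCDHG genes summed to 48.72, 47.72 and 36.23 TPM in ACSS2 shRNA libraries 1, 2 and 3, against 19.92, 12.7 and 13.37 TPM in control libraries 1, 2 and 3. The groups did not overlap, and the mean of 44.22 ± 6.94 TPM in ACSS2 shRNA cells was 2.88 times that of 15.33 ± 3.99 TPM in control cells (SD, n = 3 each). The PCDHB genes summed to 26.32, 20.61 and 13.56 TPM with the ACSS2 shRNA, against 10.36, 10.87 and 8.07 TPM with the control. Their groups did not overlap either, and the means of 20.16 ± 6.39 TPM in ACSS2 shRNA cells and 9.77 ± 1.49 TPM in control cells (SD, n = 3 each) gave a ratio of 2.06. ACSS2 shRNA library 3 was the lowest of its group in both clusters. The PCDHA genes summed to 1.88, 0.97 and 0.53 TPM with the ACSS2 shRNA, against 0.61, 0.83 and 0.37 TPM with the control, and these groups overlapped. On this per-length scale the sum over the 11 PCDHA members was the lowest of the 3 clusters in every library.

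**Figure D1:**
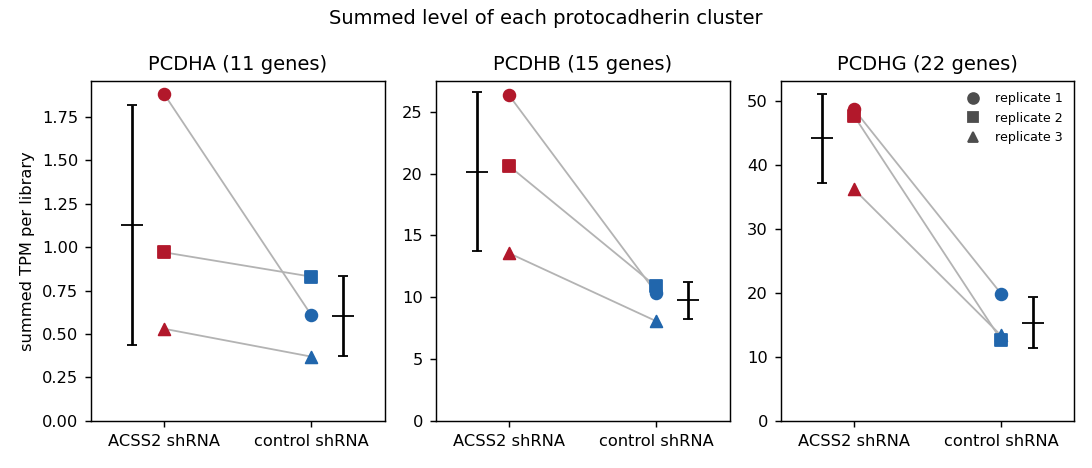
Summed TPM of each cluster (vertical axes, each from 0) in ACSS2 shRNA libraries (red) and control shRNA libraries (blue), with lines joining libraries of the same number and black bars giving the mean ± SD of 3. PCDHB and PCDHG do not overlap between groups, and PCDHA does.

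Within replicate numbers, the PCDHG sum of ACSS2 shRNA over control was 2.45 in number 1, 3.76 in number 2 and 2.71 in number 3. The PCDHB ratio was 2.54, 1.9 and 1.68 in the same numbers. The PCDHA ratio was 3.08 in number 1, 1.17 in number 2 and 1.43 in number 3. On CPM, which give long and short genes their reads rather than their copies, the ratio of means was 2.51 for PCDHG, 1.9 for PCDHB and 1.87 for PCDHA. The larger ratio in PCDHG was not carried by its most abundant member: without PCDHGC3 the cluster stood at 27.0, 22.76 and 21.97 TPM in ACSS2 shRNA cells against 9.73, 6.5 and 8.16 TPM in control cells, a ratio of 2.94. The A-type genes had a ratio of 3.03, the B-type genes 2.69 and the C-type genes 2.91. Whether PCDHG and PCDHB differed in their ratios was not tested.

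**Figure D2:**
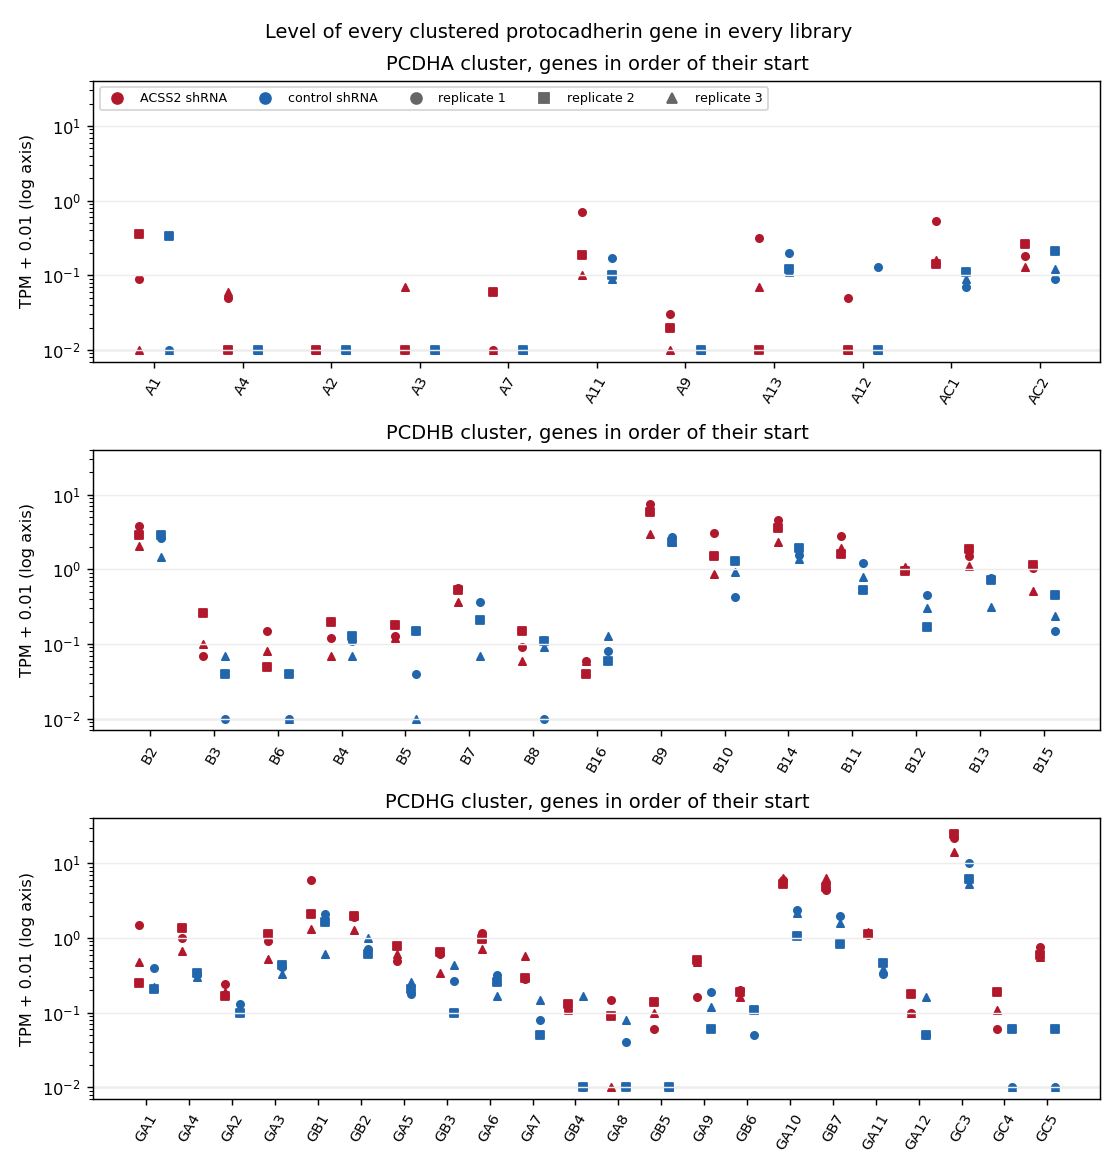
TPM + 0.01 on a log axis of every member in every library, with ACSS2 shRNA (red) left of control shRNA (blue) for each gene and marker shapes for the replicate number; points at 0.01 are listed at 0. PCDHGC3 has the highest points, and most PCDHA genes lie at or near the line of 0.

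After the low-count filter, 22 of the 48 members could be tested, 13 PCDHG and 9 PCDHB genes, out of 13003 genes of the whole table. No PCDHA gene passed the filter. Members that passed are those with enough reads in at least 1 group, so the counts over them cannot be read as counts over the family. Over all 48 members, untested ones included, the mean TPM was higher with the ACSS2 shRNA in 44 and lower in 3 (PCDHA12, PCDHA13 and PCDHB16). PCDHA2 was listed at 0 in every library. Some of these directions rest on very few reads, such as 1 for PCDHA7 and 1.76 for PCDHA9 over all 6 libraries. The direction of the mean TPM was not counted over all genes. Among tested members 22 of 22 had a positive log2 fold change without the replicate term, beside 6771 of 13003 genes tested. Without the replicate term, 0 of the 22 passed an adjusted p of 0.05 in edgeR's quasi-likelihood test, where 0.0231% of all genes tested passed as higher and 0.0461% as lower. The lowest adjusted p among the members in that test was 0.0784. DESeq2 without the term called 5 PCDHG genes as higher, beside 1.67% of 12745 genes, and gave no adjusted p for PCDHGC5 and PCDHB7. At an unadjusted p under 0.05 the higher members were 10 PCDHG and 6 PCDHB genes, beside 6.89% of all genes tested. With the replicate number as a term, 12 PCDHG and 6 PCDHB genes passed as higher and 0 as lower, beside 12.7% of all genes as higher and 12.4% as lower. When each replicate number was left out in turn, 7 of these 12 PCDHG genes (PCDHGA4, PCDHGA6, PCDHGA10, PCDHGA11, PCDHGB7, PCDHGC3 and PCDHGC5) and 4 of these 6 PCDHB genes (PCDHB9, PCDHB11, PCDHB13 and PCDHB14) were called each time. Without number 1, 2 or 3, 10.5%, 5.08% and 11.9% of all genes were called as higher. How many of all genes called with the term stayed called was not counted, so whether this retention is particular to the members is not known. The members of 16 rows, 10 PCDHG and 6 PCDHB, had all 3 ACSS2 shRNA libraries above all 3 control libraries in scaled counts, beside 9.71% of all genes tested. By the test in the authors' deposited table, 6 PCDHG genes, PCDHGA6, PCDHGA10, PCDHGA11, PCDHGB7, PCDHGC3 and PCDHGC5, had an adjusted p under 0.05 as higher, beside 1.00% of 16861 genes with a value. Since this contrast was known when the family was singled out, nothing further is read from these shares.

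The log2 fold changes without the replicate term lay between 0.83 and 4.94 over the 13 tested PCDHG genes, with a median of 1.47, and the highest was that of PCDHGC5, fitted on 2 control reads. Over the 9 tested PCDHB genes they lay between 0.22 and 1.58, with a median of 1.05. The median over all genes tested was 0.02. With the replicate term the medians were 1.46, 1.11 and 0.02 in the same order. The term left the fold changes nearly where they were and made their standard errors smaller, for PCDHGA10 for example 0.34 without it and 0.20 with it.

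**Figure D3:**
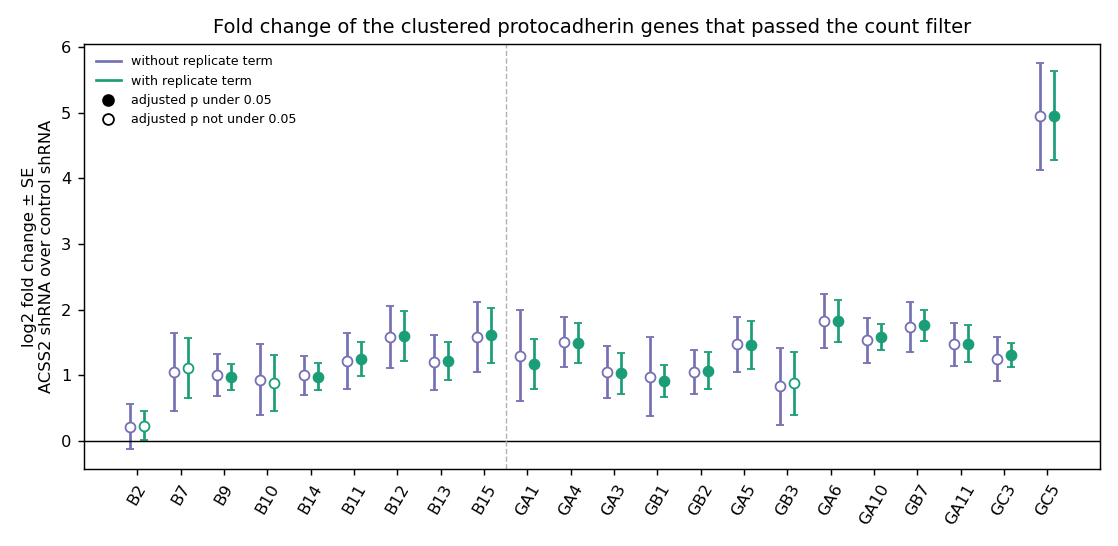
Log2 fold change ± SE, ACSS2 shRNA over control shRNA, of the 22 tested members, 9 PCDHB left and 13 PCDHG right of the dashed line, without (purple) and with (green) the replicate number as a term; filled points have an adjusted p under 0.05. No point is filled without the term, and 18 are filled with it.

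Among the C-type genes, PCDHGC3 was the most abundant member of the family in every library. PCDHGC3 (gene ID 5098, chr5:141476002-141512977 in the table) stood at 21.72, 24.96 and 14.26 TPM in ACSS2 shRNA libraries, against 10.19, 6.2 and 5.21 TPM in control libraries. The lowest ACSS2 shRNA library lay above the highest control library. Its log2 fold change in edgeR was 1.25 ± 0.34 (SE; adjusted p = 0.175), and 1.31 ± 0.18 with the replicate term (adjusted p = 0.00036). PCDHGC5, which appears late in the development of the mouse brain, stood at 0.75, 0.59 and 0.55 TPM with the ACSS2 shRNA and 0, 0.05 and 0 TPM with the control. This is 73 estimated reads in ACSS2 shRNA libraries against 2 in control libraries, a depth-adjusted ratio of 38.3 that rests on those 2 reads. PCDHGC5 passed the low-count filter through its ACSS2 shRNA libraries, so neither this ratio nor its fold change is a test. The reads of PCDHGC5 include those assigned to it from the constant exons. PCDHGC4, the C-type isoform on which neuron survival depends in mice, stood at 0.05, 0.18 and 0.1 TPM in ACSS2 shRNA libraries and 0, 0.05 and 0 TPM in control libraries, and did not pass the filter.

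The A-type and B-type PCDHG genes encode the alternative extracellular parts of the cluster, and 11 of these 19 passed the filter. PCDHGA10 (gene ID 56106) stood at 6.01, 5.3 and 6.31 TPM in ACSS2 shRNA libraries, against 2.37, 1.06 and 2.16 TPM in control libraries. PCDHGB7 (gene ID 56099), its downstream neighbour in the cluster, stood at 4.38, 4.75 and 6.28 TPM in ACSS2 shRNA libraries, against 1.94, 0.83 and 1.56 TPM in control libraries. Neither pair of groups overlapped. In edgeR with the replicate term the log2 fold changes were 1.58 ± 0.20 for PCDHGA10 (SE; adjusted p = 0.000257) and 1.76 ± 0.24 for PCDHGB7 (adjusted p = 0.000421), and without it both had an adjusted p of 0.118. PCDHGA11, next to PCDHGB7, stood at 1.1, 1.14 and 1.18 TPM with the ACSS2 shRNA and 0.32, 0.45 and 0.37 TPM with the control, also without overlap. PCDHGA12, which follows it, was at or below 0.17 TPM in every library and was not tested.

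For PCDHGB1 and PCDHGA1, near the upstream end of the PCDHG cluster, library 1 was the highest of each group. PCDHGB1 stood at 5.93, 2.09 and 1.31 TPM in ACSS2 shRNA libraries, against 2.06, 1.64 and 0.6 TPM in control libraries, and the groups overlapped. Its log2 fold change was 0.98 ± 0.60 in edgeR (SE; adjusted p = 0.509), and 0.91 ± 0.24 with the replicate term (adjusted p = 0.0147). Without ACSS2 shRNA library 1 the log2 fold change of PCDHGB1 was 0.13, and with the replicate term but without number 1 it was 0.60 (adjusted p = 0.163 in edgeR), which ended the call. PCDHGA1 stood at 1.49, 0.24 and 0.47 TPM with the ACSS2 shRNA, against 0.39, 0.2 and 0.21 TPM with the control, also overlapping. Its log2 fold change of 1.30 without the term was 0.29 without ACSS2 shRNA library 1. PCDHGA4 stood at 1.0, 1.37 and 0.67 TPM in ACSS2 shRNA cells, against 0.32, 0.33 and 0.29 TPM in control cells, with a log2 fold change of 1.51 ± 0.38. PCDHGA6 stood at 1.17, 0.95 and 0.71 TPM with the ACSS2 shRNA, against 0.31, 0.25 and 0.16 TPM with the control, with a log2 fold change of 1.82 ± 0.41. For both, the ACSS2 shRNA libraries lay above the control libraries. PCDHGB2 and PCDHGA5 had log2 fold changes of 1.05 ± 0.34 and 1.47 ± 0.42. PCDHGB3, the tested PCDHG gene that passed in neither form of the test, stood at 0.6, 0.65 and 0.33 TPM with the ACSS2 shRNA and 0.26, 0.09 and 0.43 TPM with the control, so that number 3 ran the other way. The 9 PCDHG genes that were not tested were at or below 0.56 TPM in all 6 libraries.

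In the PCDHB cluster, whose single-exon genes have no constant cytoplasmic end, PCDHB9 and PCDHB14 had the highest mean TPM of the genes that passed with the replicate term. PCDHB9 (gene ID 56127) stood at 7.46, 5.77 and 2.99 TPM in ACSS2 shRNA libraries, against 2.69, 2.31 and 2.35 TPM in control libraries. The groups did not overlap, though ACSS2 shRNA library 3 lay close above control library 1. PCDHB14 (gene ID 56122) stood at 4.62, 3.6 and 2.31 TPM with the ACSS2 shRNA, against 1.57, 1.92 and 1.36 TPM with the control. In edgeR with the replicate term the log2 fold changes were 0.97 ± 0.20 for PCDHB9 (SE; adjusted p = 0.00467) and 0.98 ± 0.21 for PCDHB14 (adjusted p = 0.00477), and without it the adjusted p were 0.221 and 0.207. The table's models of PCDHB9 and PCDHB14 span 29446 and 27494 bases and overlap 7 and 6 other members, so reads of the genes between them may be counted in them. PCDHB11, whose model spans 3271 bases and is overlapped by those of 4 other members, stood at 2.82, 1.58 and 1.9 TPM in ACSS2 shRNA libraries and 1.19, 0.52 and 0.79 TPM in control libraries. PCDHB12 stood at 0.97, 0.95 and 1.05 TPM with the ACSS2 shRNA and 0.45, 0.16 and 0.29 TPM with the control. For PCDHB11 and PCDHB12 the groups did not overlap. PCDHB13 and PCDHB15 had log2 fold changes of 1.20 ± 0.42 and 1.58 ± 0.53.

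PCDHB2, which took the highest TPM of the cluster in control library 2 and lay below PCDHB9 and PCDHB14 in each ACSS2 shRNA library, had the smallest fold change of the tested members. It stood at 3.79, 2.88 and 2.07 TPM in ACSS2 shRNA libraries, against 2.61, 2.86 and 1.46 TPM in control libraries, and the groups overlapped. Its log2 fold change was 0.22 ± 0.35 in edgeR (SE; adjusted p = 0.826), and 0.23 ± 0.22 with the replicate term (adjusted p = 0.48). The sign turned in 2 of the settings that leave out a library. PCDHB10 stood at 3.02, 1.51 and 0.86 TPM in ACSS2 shRNA libraries, against 0.41, 1.28 and 0.91 TPM in control libraries, so that number 1 alone was far apart; its log2 fold change of 0.93 was 0.35 without ACSS2 shRNA library 1. PCDHB7 stood at 0.55, 0.52 and 0.35 TPM with the ACSS2 shRNA and 0.35, 0.2 and 0.06 TPM with the control. Neither PCDHB10 (adjusted p = 0.155) nor PCDHB7 (adjusted p = 0.0891) passed in edgeR with the replicate term. The 6 PCDHB genes that were not tested, PCDHB3, PCDHB4, PCDHB5, PCDHB6, PCDHB8 and PCDHB16, were at or below 0.25 TPM in all 6 libraries.

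The PCDHA genes lay near the detection limit. Between 6 and 8 of the 11 members were above 0 in the ACSS2 shRNA libraries and between 4 and 5 in the control libraries, and none reached 1 TPM. PCDHA11 had 44.19, 6.82 and 5.79 estimated reads in ACSS2 shRNA libraries, against 11.13, 5.85 and 4.99 in control libraries, so the higher level rested on number 1. PCDHAC1, a C-type gene that behaves in mouse neurons as a constitutively expressed isoform, stood at 0.53, 0.13 and 0.15 TPM with the ACSS2 shRNA, against 0.06, 0.1 and 0.08 TPM with the control, without overlap but on few reads (26.88, 5.74 and 7.58 with the ACSS2 shRNA, 3.23, 5.14 and 2.15 with the control). PCDHAC2 stood at 0.17, 0.25 and 0.12 TPM with the ACSS2 shRNA, against 0.08, 0.2 and 0.11 TPM with the control, and the groups overlapped. PCDHA1 was listed at 0.08, 0.35 and 0 TPM with the ACSS2 shRNA and 0, 0.33 and 0 TPM with the control. PCDHA13 was listed at 0.31, 0 and 0.06 TPM with the ACSS2 shRNA and 0.19, 0.11 and 0.1 TPM with the control. PCDHA12 was listed at 0.04, 0 and 0 TPM with the ACSS2 shRNA and 0.12, 0 and 0 TPM with the control. PCDHA3, PCDHA4, PCDHA7 and PCDHA9 were listed at 0 in all control libraries and at no more than 0.06 TPM with the ACSS2 shRNA. PCDHAC1 was called as higher in 1 setting, edgeR with the replicate term and no low-count filter (log2 fold change 1.86, adjusted p = 0.044), and not without the term (adjusted p = 0.34 in edgeR with no filter).

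The leading genes of the PCDHG and PCDHB clusters mostly took shares that overlapped between the groups. PCDHGC3 took 44.6%, 52.3% and 39.4% of the PCDHG TPM in ACSS2 shRNA libraries, against 51.2%, 48.8% and 39.0% in control libraries. PCDHGA10 took 12.3%, 11.1% and 17.4% with the ACSS2 shRNA, against 11.9%, 8.35% and 16.2% with the control. Both shares overlapped between groups, and library 3 had the lowest PCDHGC3 share and the highest PCDHGA10 share of each group. PCDHB9 took 28.3%, 28.0% and 22.1% of the PCDHB TPM with the ACSS2 shRNA, against 26.0%, 21.3% and 29.1% with the control. The share of PCDHB2 did not overlap: it took 14.4%, 14% and 15.3% in ACSS2 shRNA libraries, against 25.2%, 26.3% and 18.1% in control libraries. The 3 leading genes of each library together held 66.8% to 74.1% of PCDHG and 54.4% to 66.3% of PCDHB. Of the 22 PCDHG genes 21 or 22 were above 0 in the ACSS2 shRNA libraries and 18 or 19 in the control libraries. Members at 1 TPM or more numbered 9, 8 and 6 in PCDHG with the ACSS2 shRNA and 4, 3 and 3 with the control, and 7, 7 and 6 in PCDHB with the ACSS2 shRNA and 4, 4 and 3 with the control.

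**Figure D4:**
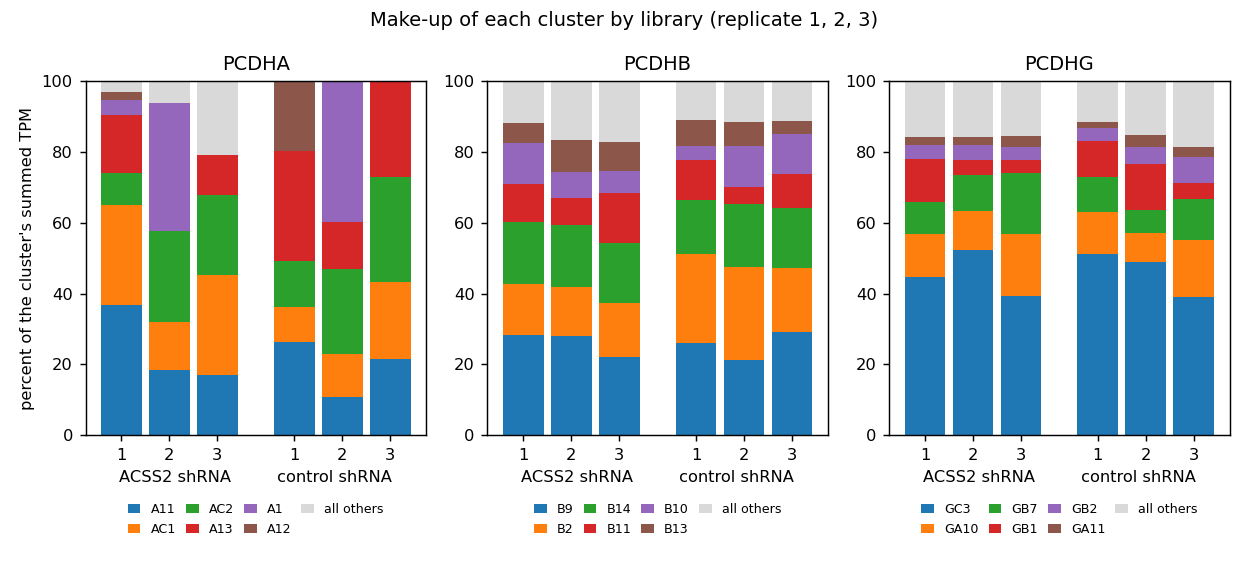
Percent of each cluster's summed TPM taken by its 6 most abundant genes and by all others (grey), for libraries 1, 2 and 3 of ACSS2 shRNA (left bars) and control shRNA (right bars). PCDHGC3 leads PCDHG in every library, with 39.0% to 52.3%, while the PCDHA bars, from sums of at most 1.88 TPM, vary widely.

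The replicate number is a second contrast in these libraries that the choice of the family did not use. The edgeR test of the replicate-number term, over all 3 numbers and with the group in the model, passed 3 of the 22 tested members at an adjusted p of 0.05, against 38.7% of all genes tested. These were PCDHGB1 (adjusted p = 0.000969), PCDHGA1 (adjusted p = 0.0102) and PCDHGC3 (adjusted p = 0.0153) in edgeR. PCDHGB1 was highest in number 1 and lowest in number 3 in both groups. PCDHGA1 was highest in number 1 in both groups, at 1.49 TPM with the ACSS2 shRNA and 0.39 TPM with the control. PCDHGC3 was lowest in number 3 in both groups, while its highest library was number 2 with the ACSS2 shRNA and number 1 with the control. Among PCDHB genes the lowest adjusted p of this term in edgeR was 0.0508, for PCDHB11. The term passed none of the PCDHG genes when the group was left out of the model.

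**Figure D5:**
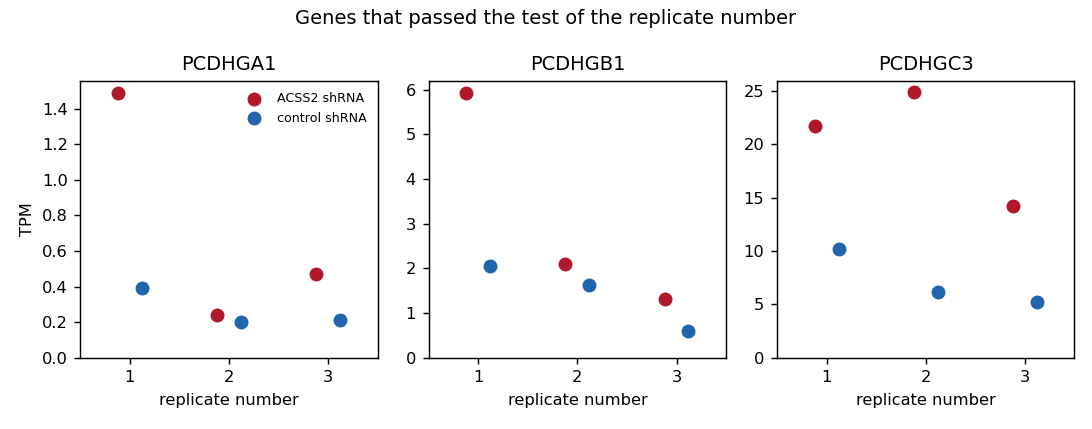
TPM (vertical axes from 0) of the 3 members that passed the test of the replicate-number term, by replicate number, with ACSS2 shRNA (red) left of control shRNA (blue). PCDHGB1 is highest in number 1 and lowest in number 3 in both groups.

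Genes around the family were counted from 6 lists, of which 93 of 94 entries were in the table. Without the replicate term, 0 genes of the lists passed in edgeR, 10 had an unadjusted p under 0.05, and DESeq2 called 2 intracellular partners, beside 1.67% of genes as higher and 2.39% as lower. The 14 neighbours of the locus in the table, 13 of them tested, had a median log2 fold change of 0.03, beside 0.02 over all genes tested. With the replicate term 1 neighbour was higher and 1 lower, beside 12.7% and 12.4% of all genes. FCHSD1, a regulator of actin assembly, was higher (log2 fold change 0.41 ± 0.12, adjusted p = 0.0204 in edgeR) and TMCO6 was lower (-0.40 ± 0.12, adjusted p = 0.0277 in edgeR). ZMAT2, a splicing factor, had a log2 fold change of -0.29. Of the 14 CTCF and cohesin genes, which organise the promoter loops of the clusters, 0 were higher and 2 lower with the replicate term, beside 12.7% and 12.4% of all genes, and the median was -0.06 with the term and -0.07 without it. These were MAU2, a loader of cohesin, at 16.3 ± 2.37 TPM in ACSS2 shRNA cells and 21.3 ± 4.79 TPM in control cells (SD, n = 3 each), and ESCO2, a cohesin acetyltransferase of S phase, at 1.37 ± 0.839 TPM in ACSS2 shRNA cells and 3.0 ± 1.98 TPM in control cells (SD, n = 3 each). ESCO1, the other cohesin acetyltransferase, had a log2 fold change of 0.35 and did not pass.

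Of the 15 silencing and DNA methylation genes, 2 were higher and 1 lower with the replicate term, near the 12.7% and 12.4% of all genes, with a median of -0.05 with the term and -0.04 without it. TET2, which oxidises methylated cytosine, stood at 12.15, 5.38 and 4.49 TPM in ACSS2 shRNA libraries, against 4.8, 2.97 and 3.44 TPM in control libraries, and the groups overlapped (log2 fold change 0.70 ± 0.14, adjusted p = 0.0029 in edgeR with the replicate term). ZNF274, a zinc finger protein, was higher as well (0.35 ± 0.12), and UHRF1, which maintains DNA methylation and was named after its values were seen, was lower (-0.44 ± 0.14). TET3 had a log2 fold change of -0.23 and passed in neither form.

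The intracellular partners, 18 tested of 19, had 5 genes higher and 5 lower with the replicate term, beside 12.7% of all genes higher and 12.4% lower. WASF3, a WAVE protein that drives branched actin, stood at 4.86, 7.22 and 7.74 TPM in ACSS2 shRNA libraries, against 12.03, 16.09 and 15.08 TPM in control libraries, without overlap (log2 fold change -1.25 ± 0.13, adjusted p = 0.000117 in edgeR with the replicate term). RHOA, a small GTPase of actin contraction, averaged 346 ± 89.5 TPM in ACSS2 shRNA cells and 662 ± 58.2 TPM in control cells (SD, n = 3 each; -1.07 ± 0.14, adjusted p = 0.000315 in edgeR with the replicate term). PTK2, the focal adhesion kinase that the cytoplasmic ends of PCDHA and PCDHG bind and inhibit, averaged 69.6 ± 4.59 TPM in ACSS2 shRNA cells and 51.3 ± 2.82 TPM in control cells (SD, n = 3 each; 0.33 ± 0.11, adjusted p = 0.0422 in edgeR with the replicate term). The other genes that passed with the term, named after their values were seen, were BRK1, WASF1, CTNNB1 and ADAM10 as higher and CYFIP2, ABI2 and WASF2 as lower.

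Other adhesion genes of the cadherin superfamily had medians near 0. Of 12 tested protocadherin and FAT-type genes outside the clusters, 1 was higher and 0 lower with the replicate term, beside 12.7% and 12.4% of all genes, and the median log2 fold change was -0.06 without it. That gene was PCDH9, at 1.99, 1.67 and 0.83 TPM in ACSS2 shRNA libraries and 0.48, 1.2 and 0.54 TPM in control libraries (0.91 ± 0.31, adjusted p = 0.0485 in edgeR with the replicate term). PCDH18 and FAT1 had log2 fold changes of -0.93 and 0.33 and passed in neither form. Of 9 tested classical cadherins, 1 was higher and 1 lower with the replicate term, near the 12.7% and 12.4% of all genes, and the median was 0.06 without it. CDH5, the endothelial cadherin, stood at 0.89, 3.23 and 1.06 TPM with the ACSS2 shRNA and 0.23, 0.46 and 0.58 TPM with the control. CDH18 averaged 4.42 ± 0.36 TPM in ACSS2 shRNA cells and 7.08 ± 1.77 TPM in control cells (SD, n = 3 each). CDH11, the most abundant of the 3 classical cadherins named here, had a log2 fold change of 0.31 and did not pass.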

How the data were processed

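The 6 libraries were grouped by the labels' treatment. The authors deposited expected counts (estimated reads per gene), TPM, and their own log2 fold changes, p-values and adjusted p-values in 1 table. RSEM, Bowtie2 and HISAT are named, without versions, per the submitters' processing notes; no build or annotation is named in those notes, and the chromosome accessions in the table are those of GRCh38. Of the table's lines, 565 spilled text lines were left out, and 26 symbols that a spreadsheet had made into dates were recovered by gene ID. A total of 797 genes were 0 throughout.

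Expected counts were rounded and tested with edgeR 4.0.16 in R 4.3.3 (quasi-likelihood F test, TMM, filterByExpr with a minimum count of 10 and total of 15, Benjamini-Hochberg adjustment over 13003 genes), without and with the replicate number as an additive term; the SE is the size of the log2 fold change over the root of F. Alternatives used DESeq2 1.42.0 and limma 3.58.1. The code was tested on simulated data. Same-numbered libraries carry the same batch tag, and their deviations from the group means correlated at r = 0.716, 0.494 and 0.74 across genes. The r of unequal numbers was at most -0.0102, but centring on group means pushes it below 0 when equal numbers correlate, so it adds no separate evidence. The numbers were taken to pair the libraries by the tag and the r of equal numbers. Labels call the replicates biological. Library totals limit genes of few reads most.

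Named members are the 6 with the highest mean TPM per cluster, each C-type gene, up to 8 per cluster that passed in either form, ACSS2 and, per list, the 3 genes with the smallest p without the replicate term; PCDHB7, PCDHGB3, PCDHGA1, PCDHGA12, low PCDHA genes and others outside this rule were named after their values were seen. The members and lists were chosen with earlier results of these data known. Where the text says replicate term, the number is a block in the model. Coordinates of genes are those of the deposited table.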

Additional observations from a re-analysis of the deposited data

How the results depend on the processing

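Of the 18 tested members named by rule, log2 fold changes kept their sign in each setting run, except for PCDHB2, which was -0.0044 without ACSS2 shRNA replicate 1 and -0.01 without control replicate 3 (range -0.01 to 0.38 over settings that leave out 1 library).

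The replicate block moved the counts of calls. As higher it called 12 PCDHG and 6 PCDHB genes, against 0 without it. DESeq2 called 5 PCDHG genes without the block (beside 1.67% of all genes as higher), and 9 PCDHG and 5 PCDHB genes with it (8.87%). With the block and no low-count filter, edgeR called 13 PCDHG genes, 6 PCDHB genes and 1 PCDHA gene, PCDHAC1 (9.47%). With the block, limma on log2(TPM + 0.1) called 11 PCDHG and 7 PCDHB genes (17.4%). Leaving out replicate number 1, 2 or 3 under the block gave 9, 10 and 12 PCDHG genes and 5, 6 and 7 PCDHB genes, beside 10.5%, 5.08% and 11.9% of all genes. In the lists the block called 2 CTCF and cohesin genes, 3 silencing and DNA methylation genes, 10 intracellular partners, 1 other protocadherin, 2 classical cadherins and 2 locus neighbours, and DESeq2 without the block called 2 intracellular partners; without the block edgeR called 0 in each. The cause was not tested.

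For the replicate-number term, the main fit called 3 PCDHG genes, beside 38.7% of all genes tested. Leaving out 1 library gave 0 to 1 PCDHA, 0 to 2 PCDHB and 3 to 5 PCDHG genes, with 5 without ACSS2 shRNA replicate 2. RLE size factors gave 1 PCDHB gene, no filter gave 2 PCDHA and 2 PCDHB genes, and leaving the group out of the model gave 0 PCDHG genes. The share of all genes called was not taken in these other settings, so nothing is read from their counts. The causes were not tested. The log2 ratios of cluster sums stayed within the spread between replicates in each setting run, at 0.31 to 1.24 for PCDHA, 0.81 to 1.26 for PCDHB and 1.33 to 1.76 for PCDHG. A sum over filtered members could not be had for PCDHA, of which none passed. The PCDHA sums, at most 1.88 TPM, rest on few reads.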
